A study of Mus musculus with 16 samples.

Results

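The genes described here encode the subunits of oxidative phosphorylation, with a few of its assembly factors, in mouse liver. They were chosen by name: every gene whose symbol begins with Nduf, Uqcr, Atp5 or mt-, with Cox followed by 4 to 8, or is Sdha, Sdhb, Sdhc or Sdhd. The rule found 104 of the 16793 genes in the deposited table, 91 encoded in the nucleus and 13 in the mitochondrial genome. Complex I held 43 subunits, complex II 4, complex III 9, complex IV 21 and complex V 18. Another 9 were assembly factors of complex I, among them Atp5sl, which carries an Atp5 name.

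Polyadenylated RNA was sequenced from livers of wild-type mice with induced primary liver cancer, taken at the end of the experiment. In the surgery experiment female mice were ovariectomized (OVX), an operation that takes away the ovaries and with them most circulating estrogen, or sham operated (Sham). In the vector experiment the livers overexpressed LCAT, lecithin-cholesterol acyltransferase, or were the control group labelled Vec. Each of the 4 groups had 4 libraries. The age of the mice, the sex of the mice in the vector experiment, the way the cancer was induced and the promoter that drove LCAT were not stated in the labels. Nothing in the labels says that the 4 libraries of a group came from 4 animals, so p-values measure the spread between these libraries, which may be technical. In bulk tissue, fewer cells of a type and less RNA per cell cannot be told apart.

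The libraries held 12562943 to 27110501 reads, recovered from the deposited normalized read counts. The hepatocyte markers Alb, Ttr, Apoa1, Apoh, Hpd and Tat were present in every group, with summed levels of 2033790 to 3619680 normalized reads. Lcat itself was at 3348, 2926, 4521 and 2980 normalized reads in Vec libraries 1 to 4 and at 5014, 5074, 5106 and 4531 in the LCAT libraries. The groups did not overlap, and Vec-3 lay just under LCAT-4. The change of Lcat was 0.54 log2 units (SE 0.14, limma adjusted p = 0.0168). In the surgery experiment it was at 5714, 5656, 5578 and 5701 in Sham and at 3637, 3458, 3399 and 3061 in OVX, a change of -0.74 (SE 0.07, limma adjusted p = 1.669e-04). All Sham libraries thus lay above all LCAT libraries, side by side and without a test between the experiments.

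Oxidative phosphorylation passes electrons from NADH through complex I, or from succinate through complex II, to coenzyme Q, on through complex III and cytochrome c to complex IV, and there to oxygen. Complexes I, III and IV pump protons across the inner mitochondrial membrane, and complex V, the ATP synthase, uses their return to make ATP. All complexes but complex II mix subunits made in the cytosol from nuclear genes with a small number of core subunits made inside mitochondria. Hepatocytes are rich in mitochondria and use this ATP for gluconeogenesis, urea synthesis and secretion.

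Mitochondrial genes are cut from long transcripts that span nearly the whole circular genome, and some neighbours stay on a shared messenger. Those shared pairs matter below, because their read ratios differed between libraries. The following pair of sequences shows the end of the first gene of each shared messenger, from the GENCODE M21 transcripts on GRCm38, plus strand, 5′ to 3′. Capitals mark the bases that both genes of a pair use, 7 for mt-Nd4l with mt-Nd4 at chrM:10144-10173 and 43 for mt-Atp8 with mt-Atp6 at chrM:7917-7969.
mt-Nd4l into mt-Nd4: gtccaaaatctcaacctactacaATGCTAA
mt-Atp8 into mt-Atp6: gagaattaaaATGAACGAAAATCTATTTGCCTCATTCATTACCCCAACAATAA

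Many nuclear respiratory chain genes are known targets of NRF1, GABPA (also called NRF2) and estrogen-related receptors. The RefSeq promoter table on GRCm38.p6 held 73 of the 91 nuclear members, and the 250 bases before each start were searched on both strands. The NRF1 motif, which is GCGCA, any base and GCGC, and stands in capitals in the printed sequences, was found in 14 of the 73 (19.2%), against 4.23% of 27025 genes. The GABPA motif CCGGAAG was also found in 14 (19.2%), against 7.83% of genes, and the estrogen-related receptor motif TCAAGGTCA in 1 (1.37%), against 0.422%. A GABPA match on the other strand reads CTTCCGG, and a match describes the letters only. The windows of Sdhd, Cox6a1 and Atp5h held both NRF1 and GABPA letters and are printed with the matches in capitals, in the direction of the gene. The window of Uqcrfs1 held none and is printed beside them. All these genes were picked for printing because they changed in both experiments.
Sdhd, chr9:50603850-50604099, minus strand: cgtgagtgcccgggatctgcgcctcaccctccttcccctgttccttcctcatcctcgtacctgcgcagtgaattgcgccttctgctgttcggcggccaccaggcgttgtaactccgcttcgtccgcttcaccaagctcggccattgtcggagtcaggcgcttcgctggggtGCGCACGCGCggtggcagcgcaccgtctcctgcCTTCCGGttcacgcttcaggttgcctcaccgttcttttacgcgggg
Cox6a1, chr5:115348959-115349208, minus strand: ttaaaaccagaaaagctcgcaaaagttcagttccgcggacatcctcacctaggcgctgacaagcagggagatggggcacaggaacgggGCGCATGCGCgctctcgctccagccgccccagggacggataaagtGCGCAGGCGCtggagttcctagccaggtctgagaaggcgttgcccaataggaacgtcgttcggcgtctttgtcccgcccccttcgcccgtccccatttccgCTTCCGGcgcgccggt
Atp5h, chr11:115419920-115420169, minus strand: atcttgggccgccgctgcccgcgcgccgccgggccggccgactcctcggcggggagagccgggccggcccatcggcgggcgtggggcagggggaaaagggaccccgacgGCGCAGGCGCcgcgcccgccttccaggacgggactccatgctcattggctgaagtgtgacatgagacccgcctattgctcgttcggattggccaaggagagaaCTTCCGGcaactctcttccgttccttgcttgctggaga
Uqcrfs1, chr13:30545317-30545566, minus strand: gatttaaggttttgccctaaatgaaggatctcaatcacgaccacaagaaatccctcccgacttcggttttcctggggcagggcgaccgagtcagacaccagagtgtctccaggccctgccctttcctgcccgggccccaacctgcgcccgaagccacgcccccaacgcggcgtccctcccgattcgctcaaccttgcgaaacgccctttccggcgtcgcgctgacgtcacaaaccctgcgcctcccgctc

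Per kilobase of transcript, the median level of the mitochondrial genes was far above that of the nuclear ones in every group. In Sham the median over the 13 mitochondrial genes was 84547 normalized reads per kilobase, and that over the 89 nuclear members with a transcript length was 1479. mt-Co1, the catalytic subunit of complex IV, was highest at 164285 ± 7040 reads per kilobase (SD, n = 4). It was followed by the complex I subunit mt-Nd1 at 129983 ± 23434, the complex V subunit mt-Atp6 at 126112 ± 10590 and the complex III subunit mt-Cytb at 122969 ± 6383, which lay within each other's spread. The complex I subunits mt-Nd4l, at 30329 ± 1982, and mt-Nd3, at 15344 ± 2612, were the lowest of the 13. Among nuclear members the β subunit of the ATP synthase, Atp5b, led with 8885 ± 623 reads per kilobase. The medians were 58189 and 1146 in OVX, 55659 and 1265 in Vec, and 78344 and 2088 in LCAT. In LCAT the ranges came close: mt-Nd4l and mt-Nd5, at 13037 ± 9253 and 13181 ± 7169 reads per kilobase, lay within their spread of the highest nuclear member there, Cox6a1 at 10807 ± 3273.

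Levels of respiratory chain messengers from both genomes were lower in OVX than in Sham livers. Of the 104 members, 100 averaged at least 10 normalized reads over the 8 libraries and were tested. With limma and Benjamini-Hochberg adjustment over all genes, 61 were lower and 0 higher at an adjusted p below 0.05, while 20.6% of all 13059 genes tested were lower and 19.0% higher. At an unadjusted p below 0.05, 66 members were lower and 0 higher. The share of all genes was not counted at that threshold. edgeR called 60 lower and 0 higher, where 2639 and 2486 of all 13059 genes were. DESeq2 called 64 lower and 0 higher, where 2968 and 2758 of all 13059 genes were. With all 16 libraries sharing one estimate of the spread the lower count was 32, against 17.6% of all genes, with 0 higher. The median change was -0.31 log2 units over 87 nuclear members and -0.57 over the 13 mitochondrial ones, against 0.00 over all genes. The 4 libraries of each group did not overlap for 49 members that were lower and for 0 that were higher, where this held for 20.1% and 18.9% of all genes.

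This count depended on the scale of the values. Normalized totals were 20122807 to 22580423 reads in Sham and 17489003 to 18392899 in OVX, so scaling all libraries to equal totals moved the median of all genes to 0.25 log2 units. On that scale 10 members were lower and 4 higher, against 9.16% and 33.8% of all genes, and the lower called genes Ndufa2 and Ndufa8 changed sign. The 10 were mt-Nd1, mt-Nd2, mt-Nd5, mt-Nd6, mt-Co1, Ndufa3, Ndufa4, Ndufb9, Ndufv3 and Cox7a2l, and the 4 were Ndufs8, Cox7a2, Ndufaf5 and Ndufaf7. Relative to the median of all genes, the nuclear median was -0.31 and the mitochondrial median -0.58 on the equal totals scale, against -0.31 and -0.57 as deposited.

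**Figure D1:**
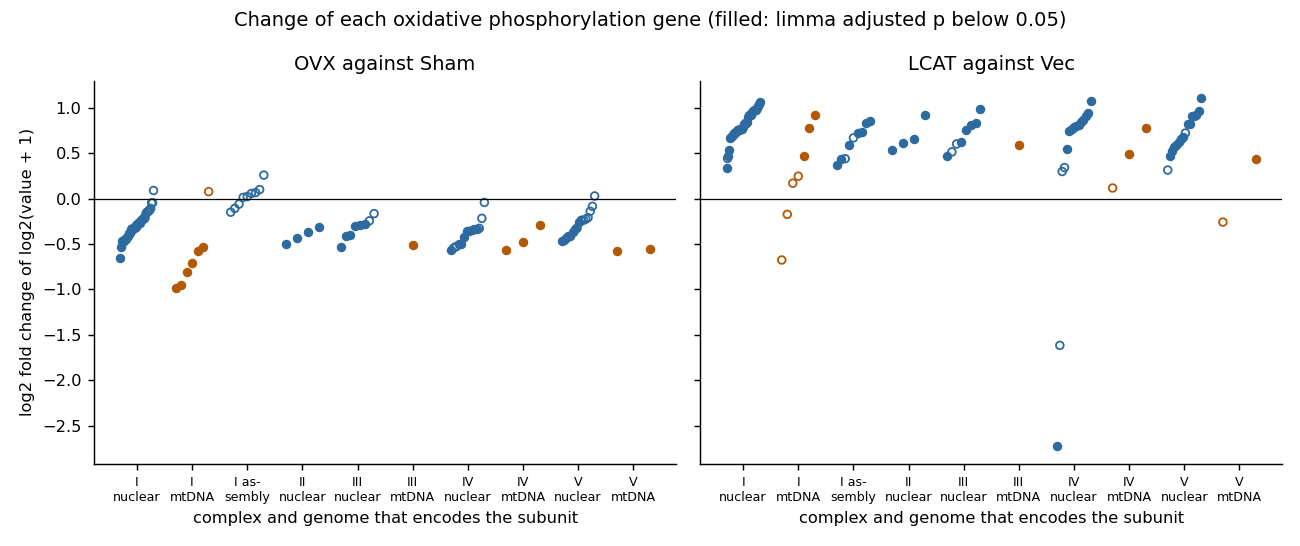
Log2 fold change of log2(value + 1) for each tested member, by complex and by the genome that encodes it (blue nuclear, orange mitochondrial), with OVX against Sham on the left and LCAT against Vec on the right; filled points had a limma adjusted p below 0.05. On the left 61 filled points lie below the line and 0 above it on the deposited scale (10 below and 4 above with equal library totals); on the right 82 lie above it and 1, Ndufa4l2, below it.

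Of the mitochondrial genes 12 of 13 fell in OVX on the deposited scale, and 5 of 13 with equal library totals, against 9.16% of all genes. As deposited, mt-Nd6, mt-Nd5, mt-Nd1 and mt-Nd2 had the largest declines of all members tested. mt-Nd6, a complex I subunit and the member encoded on the opposite strand from the others, was at 46479, 36430, 33166 and 32993 normalized reads in Sham 1 to 4 and at 17940, 16976, 19812 and 20188 in OVX 1 to 4. Every OVX library lay below every Sham library, and the change was -0.98 log2 units (SE 0.12, limma adjusted p = 0.00068). mt-Nd5, the proton-pumping subunit at the far end of the membrane arm, was at 88114, 69854, 68330 and 64299 in Sham and at 36113, 34049, 39524 and 39735 in OVX. The groups were again apart, with a change of -0.95 (SE 0.11, limma adjusted p = 0.000504). mt-Nd6 had 48.5% to 52.7% of the reads of mt-Nd5 in Sham and 49.7% to 50.8% in OVX, so these genes moved together. The labels do not say whether reads were counted by strand, so the decline of mt-Nd6 is not shown to be a separate one. mt-Nd1, which takes part in binding coenzyme Q, fell by 0.81 (limma adjusted p = 0.00307), from 124393 ± 22426 to 70419 ± 8039 normalized reads (SD, n = 4).

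The other mitochondrial genes moved less. The catalytic complex IV subunit mt-Co1 fell by 0.57, mt-Co2 by 0.48 and mt-Co3 by 0.29 log2 units, with limma adjusted p of 0.00402, 0.00676 and 0.0428. The ATP synthase genes mt-Atp6 and mt-Atp8 fell by 0.57 and 0.55, and mt-Cytb, the cytochrome b of complex III, by 0.51. The complex I genes mt-Nd2, mt-Nd4 and mt-Nd4l fell by 0.71, 0.58 and 0.53. mt-Nd3 was the exception: it was at 4413, 5077, 5285 and 6584 in Sham and at 5193, 5380, 5425 and 6371 in OVX. The groups overlapped throughout, with a change of 0.08 (SE 0.13, limma adjusted p = 0.647).

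A measure that needs no scaling also separated the surgery groups. The reads of the 13 mitochondrial genes were 7.10, 6.41, 6.55 and 7.20 times those of the 91 nuclear members in Sham 1 to 4 and 5.59, 5.31, 5.96 and 5.86 times in OVX 1 to 4. The ratio was lower in every OVX library than in any Sham library, so the mitochondrial share of respiratory chain reads was smaller after OVX.

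**Figure D2:**
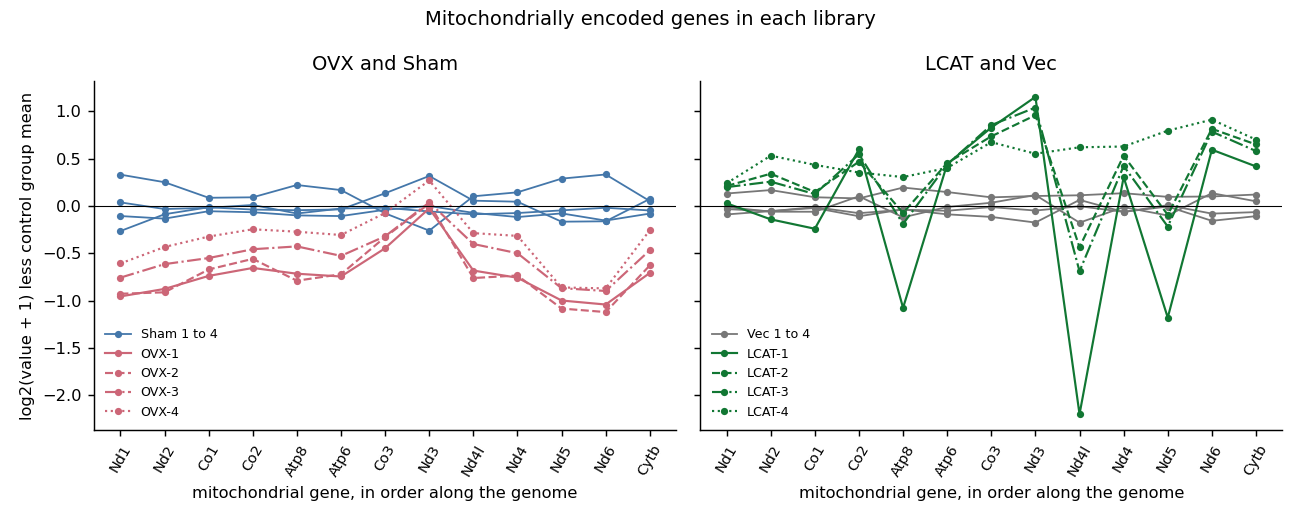
Difference of log2(value + 1) from the mean of the control group, for each of the 13 mitochondrial genes in their order along the genome, 1 line per library, with Sham and OVX on the left and Vec and LCAT on the right. The OVX lines run below the Sham lines except at mt-Nd3, where they meet, and at mt-Co3, where OVX-4 reaches 52836 and Sham-1 52690; the lines of LCAT-1, LCAT-2 and LCAT-3 dip at mt-Atp8, mt-Nd4l and mt-Nd5, and that of LCAT-4 does not dip there below the Vec lines.

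Among complex I subunits encoded in the nucleus, 22 of 36 fell in OVX on the deposited scale. With equal library totals 3 of 36 did, against 9.16% of all genes. Ndufv1, which carries the flavin that takes electrons from NADH, was at 1456, 1502, 1389 and 1524 normalized reads in Sham and at 1057, 1046, 989 and 1219 in OVX. The groups did not overlap, and the change was -0.45 (SE 0.08, limma adjusted p = 0.003). Among other subunits of the conserved catalytic core, Ndufs3 and Ndufs7 fell by 0.33 and 0.31, while Ndufs1, Ndufs8 and Ndufv2 did not pass. The accessory subunit Ndufb9 had 2607, 2502, 2209 and 2023 reads in Sham and 1456, 1588, 1582 and 1795 in OVX. It changed by -0.54 (SE 0.10, limma adjusted p = 0.00428), again without overlap. Another accessory subunit, Ndufv3, fell by 0.66, and Ndufa3 by 0.46. The 9 complex I assembly factors had changes between -0.15 and 0.26 with a median of 0.02, and the smallest of their limma adjusted p was 0.181.

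The remaining complexes followed the same direction on the deposited scale. With equal library totals, 0 of 4 genes of complex II, 0 of 9 of complex III and 0 of 18 of complex V were lower. For complex IV it was 3 of 17, where 9.16% of all genes were lower. As deposited, all 4 subunits of complex II, which is wholly nuclear and shared with the tricarboxylic acid cycle, fell. Its membrane anchors Sdhd and Sdhc fell by 0.50 and 0.31, and its catalytic subunits Sdhb and Sdha by 0.43 and 0.36. Sdhd was at 2922, 2850, 2607 and 2348 in Sham and at 1646, 1841, 1815 and 2292 in OVX, where OVX-4 came nearest to Sham. For Sdha and Sdhb the groups overlapped, because OVX-4 reached the Sham range at 5492 and 1998 normalized reads.

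In complex III, 7 of 9 subunits fell. The Rieske iron-sulfur protein Uqcrfs1 was at 3644, 3664, 3506 and 2927 in Sham and at 2095, 2378, 2296 and 2764 in OVX. It changed by -0.53 (SE 0.11, limma adjusted p = 0.00601) without overlap. Its structural partners Uqcrc2 and Uqcr10 fell by 0.40 and 0.41, and Uqcrc1 and Uqcrh did not pass.

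In complex IV, 12 of 17 tested genes fell. Cox5a, a subunit on the matrix side, was at 2584, 2522, 2369 and 2110 in Sham and at 1489, 1756, 1542 and 2016 in OVX, and changed by -0.50 (SE 0.11, limma adjusted p = 0.00909). Cox7a2l, known for its part in joining complexes III and IV into supercomplexes, was at 1873 ± 299 in Sham and 1257 ± 58.5 in OVX and fell by 0.56. Cox4i1, Cox5b and Cox6a1 fell by 0.42, 0.33 and 0.34 without overlap, while Cox7a2 did not pass, at -0.04 log2 units.

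In complex V, 10 of 18 genes fell. Atp5b, a catalytic subunit of its F1 head, was at 18198, 17798, 16490 and 15605 in Sham and at 10845, 11888, 12147 and 14679 in OVX. It changed by -0.46 (SE 0.10, limma adjusted p = 0.00901) without overlap. Its partner Atp5a1 fell by 0.41, the central stalk subunit Atp5d by 0.41 and the peripheral stalk subunit Atp5h by 0.43. Of the genes Atp5g1, Atp5g2 and Atp5g3, which encode the same subunit c of the rotor ring, Atp5g1 and Atp5g3 fell by 0.25 and 0.37, and Atp5g2 had -0.23 with a limma adjusted p of 0.0509.

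Libraries within OVX were not alike. The median difference of the nuclear members from the Sham mean was -0.42, -0.31, -0.34 and -0.14 log2 units in OVX 1 to 4, and 0.10, 0.06, -0.04 and -0.13 in Sham 1 to 4. OVX-4 was thus at the level of Sham-4, which had the lowest nuclear median of its group. Without Sham-2 the count of lower members was 34, where 1863 of all 13079 genes were lower. It was the only one of 8 such omissions to move the count by more than 1.5 times. Markers of other cell types differed between the groups: the summed hepatocyte markers were 2460480 to 3619680 in Sham and 2052930 to 2149240 in OVX, with 5 of 6 lower. The summed cholangiocyte markers Krt7, Krt19, Epcam, Sox9 and Spp1 were 15299 to 21723 in Sham and 35679 to 103663 in OVX, with 3 of 5 higher. Nearly all of that sum was Spp1, at 18253 ± 2869 in Sham and 76009 ± 29564 in OVX, and the other markers that rose were Krt7 and Krt19. Endothelial markers summed to 3437 to 3521 in Sham and 2365 to 2443 in OVX, with 4 of 6 lower. Kupffer cell markers summed to 3337 to 3879 and 1973 to 3607, with 3 of 6 lower, and erythroid markers to 3766 to 20570 and 2803 to 5083, with 3 of 5 lower. Stellate cell markers summed to 4717 to 5453 and 3644 to 3816, with 2 of 6 higher and 2 lower. Their part in the decline of the respiratory chain genes was not tested.

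**Figure D3:**
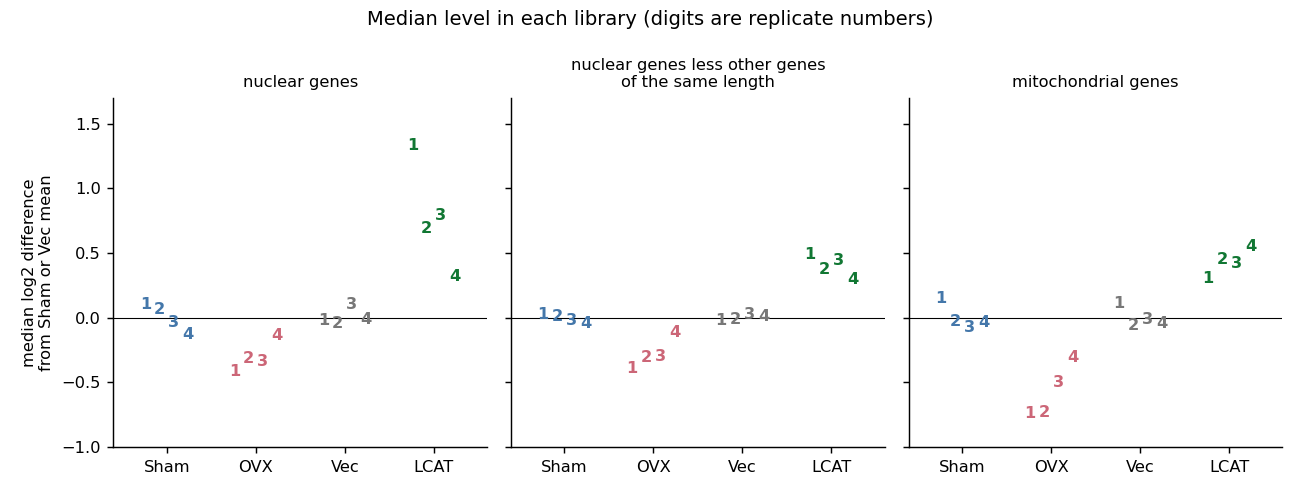
Median log2 difference from the mean of the control group (Sham for Sham and OVX, Vec for Vec and LCAT) in each library, for nuclear members, for nuclear members less other genes of similar transcript length, and for the 13 mitochondrial genes; digits are replicate numbers. OVX-4 lies at -0.14 for nuclear members, at the level of Sham-4; the LCAT nuclear medians run from 0.32 to 1.33 and narrow to 0.29 to 0.49 once genes of the same length are subtracted.

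In the vector experiment most respiratory chain genes were higher with LCAT than with Vec. Of 101 members tested, 82 were higher and 1 lower by limma, while 20.2% of all 13095 genes tested were higher and 20.5% lower. Of these, 75 of 88 nuclear and 7 of 13 mitochondrial genes rose. The groups did not overlap for 71 members that were higher and 1 that was lower, against 20.2% and 20.3% of all genes. The median change was 0.76 log2 units over nuclear and 0.43 over mitochondrial members, against 0.00 over all genes. With equal library totals 65 members were higher and 1 lower, where 13.8% and 30.6% of all genes were, since the median of all genes moved to -0.18. Relative to it the nuclear and mitochondrial medians were 0.76 and 0.43.

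The rise differed in size among the LCAT libraries and moved with transcript length. Among genes that are not members, those with transcripts of up to 600 bases had a median difference from the Vec mean of 1.07, 0.36, 0.40 and -0.07 log2 units in LCAT 1 to 4. Those with transcripts over 2000 bases had -0.20, -0.12, -0.13 and -0.01. Short genes were thus high in LCAT-1, less so in LCAT-2 and LCAT-3, and level in LCAT-4. The nuclear members are short, with a median transcript of 944.5 bases against 3096 bases for other genes. Their own medians were 1.33, 0.69, 0.79 and 0.32 in LCAT 1 to 4, and after subtracting other genes of the same length range 0.49, 0.37, 0.44 and 0.29. Every LCAT library thus stayed above the Vec libraries, which lay between -0.02 and 0.02 on that measure.

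Counts followed the same pattern. In a fit chosen after the data were seen, in which the trends with transcript length and GC content were removed from each library, 63 members were higher and 2 lower, against 20.9% and 20.7% of all genes, and the medians were 0.37 for nuclear and -0.01 for mitochondrial genes. Only mt-Nd3 of the 13 mitochondrial genes was higher in that fit. The trends were drawn over all genes together, nuclear and mitochondrial. Smoothing lowered the short genes mt-Nd4l and mt-Atp8 further, from -0.68 to -1.18 and from -0.26 to -0.81. Whether trends over all genes suit mitochondrial genes was not tested, so their smoothed values are not read as a result. With LCAT-4 as the sole LCAT library, also chosen after the data were seen and with its spread taken from the Vec libraries, 48 members were higher and 2 lower, against 15.9% and 19.2% of all genes. The 48 were 37 nuclear and 11 of the 13 mitochondrial genes, and the medians were 0.32 and 0.55. The mitochondrial count was thus 1 with length and GC smoothed, 7 with all LCAT libraries and 11 with LCAT-4 alone. The fit with length and GC smoothed left 55 members lower and 0 higher in OVX, against 21.1% and 18.9% of all genes. There the subtraction of other genes of the same length range left the nuclear medians at -0.39, -0.30, -0.30 and -0.11 in OVX 1 to 4, close to the values without it. Across nuclear members, the Spearman correlation of change with transcript length was -0.40 for LCAT (85 genes) and 0.12 for OVX (84 genes), as a description over genes that share libraries.

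The shared mitochondrial messengers gave a second measure of the LCAT libraries. Reads of mt-Nd4l, the first gene of its messenger, were 8.11% to 10.2% of those of mt-Nd4 in the 12 Sham, OVX and Vec libraries. In LCAT 1 to 4 they were 1.60%, 4.65%, 4.21% and 9.04%. LCAT-1, LCAT-2 and LCAT-3 lay below all other libraries, and LCAT-4 lay among them. Reads of mt-Atp8 were 18.2% to 21.5% of those of mt-Atp6 in the 12 libraries and 6.87%, 13.6%, 12.7% and 18.4% in LCAT 1 to 4. Here too the first gene of the messenger had fewer reads relative to the second in LCAT-1, LCAT-2 and LCAT-3, in the same order as the length pattern. mt-Nd6, whose annotated end overlaps that of mt-Nd5 by 14 bases on the other strand, had 46.0% to 60.2% of the reads of mt-Nd5 in the 12 libraries and 175%, 95.9%, 102% and 55.4% in LCAT 1 to 4. The labels do not say whether reads were counted by strand, so reads of mt-Nd6 and of RNA antisense to it cannot be told apart.

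**Figure D4:**
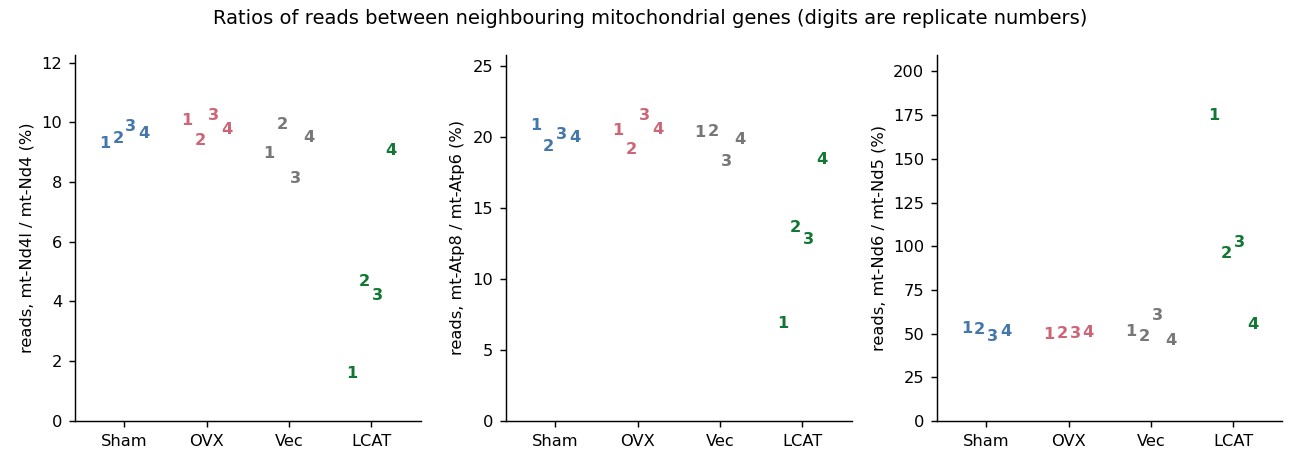
Reads of mt-Nd4l as a percentage of mt-Nd4, of mt-Atp8 as a percentage of mt-Atp6 and of mt-Nd6 as a percentage of mt-Nd5 in each library; digits are replicate numbers and each axis starts at 0. LCAT-1, at 1.60%, 6.87% and 175%, stands farthest from the 12 libraries of the other groups, LCAT-2 and LCAT-3 lie between, and LCAT-4, at 9.04%, 18.4% and 55.4%, lies among them.

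The mitochondrial genes were uneven in the LCAT livers. mt-Co3 was at 44615, 38659, 42880 and 41545 in Vec and at 74344, 69721, 75705 and 66818 in LCAT, far apart, with a change of 0.77 (SE 0.08, limma adjusted p = 0.000212). mt-Nd3 was at 5070, 4175, 5109 and 4558 in Vec and at 10474, 9159, 9690 and 6910 in LCAT, and changed by 0.93 (SE 0.14, limma adjusted p = 0.00136). mt-Nd6, mt-Cytb, mt-Co2, mt-Nd4 and mt-Atp6 rose by 0.78, 0.59, 0.49, 0.47 and 0.43. mt-Nd1, mt-Nd2 and mt-Co1 did not pass, at 0.17, 0.25 and 0.12. mt-Nd4l was at 1083, 3678, 3085 and 7643 in LCAT 1 to 4 and 4401 to 5379 in Vec, so 3 libraries lay below Vec and LCAT-4 above it. mt-Nd5 did likewise, at 10682, 22679, 20813 and 41990 against 22559 to 25861, except that LCAT-2 lay within the Vec range. Neither these nor mt-Atp8 passed the test, and with LCAT-4 alone mt-Nd5 and mt-Nd4l had changes of 0.80 and 0.62. The reads of the 13 mitochondrial genes were 4.80 to 5.67 times those of the nuclear members in Vec and 2.51, 4.26, 3.90 and 5.70 times in LCAT 1 to 4, so the groups overlapped. The part of the length pattern and of these ratios in the changes was not tested.

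In complex I, 34 of 36 nuclear subunits rose with LCAT. Ndufv1 was at 973, 1100, 1067 and 1130 normalized reads in Vec and at 2764, 1948, 2345 and 1859 in LCAT. It changed by 1.05 (SE 0.13, limma adjusted p = 0.000592), with no overlap, and by 0.75 with length and GC smoothed. The accessory subunit Ndufb9 was at 1653 ± 49.0 in Vec and 3442 ± 843 in LCAT (SD, n = 4), with 4485, 3277, 3565 and 2440 in LCAT 1 to 4, and rose by 1.02. The core subunits Ndufs3 and Ndufs7 rose by 0.68 and 0.97, and Ndufs1 by 0.33. Ndufa2 and Ndufv3, at 0.75 and 0.44, did not pass. With length and GC smoothed the changes of Ndufb9, Ndufs3, Ndufs7 and Ndufs1 were 0.48, 0.19, 0.51 and 0.32.

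Assembly factors of complex I, which did not pass in the surgery experiment on the deposited scale, mostly rose here, 7 of 9. With equal library totals 5 of 9 rose, against 13.8% of all genes. With length and GC smoothed 4 of 8 rose, against 20.9% of all genes. Ndufaf1, which takes part in building the membrane arm, was at 247, 172, 226 and 178 in Vec and at 445, 379, 361 and 301 in LCAT, a change of 0.85 (SE 0.16, limma adjusted p = 0.00414). Ndufaf2 and Atp5sl rose by 0.83 and 0.59.

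All 4 subunits of complex II rose. Sdha was the most even across libraries, at 4417, 4660, 4466 and 4519 in Vec and at 6171, 6383, 6614 and 7005 in LCAT, where LCAT-4 was highest. It changed by 0.53 (SE 0.07, limma adjusted p = 0.000804), with no overlap. Sdhb rose by 0.92, Sdhc by 0.66 and Sdhd by 0.61. With length and GC smoothed Sdha, Sdhb and Sdhc changed by 0.54, 0.46 and 0.71, and Sdhd by 0.22, which did not pass.

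In complex III, 7 of 9 subunits rose. Uqcrfs1 was at 2230, 2221, 2461 and 2323 in Vec and at 4584, 3735, 4040 and 3378 in LCAT. It changed by 0.76 (SE 0.10, limma adjusted p = 0.000811), with every LCAT library above every Vec library. Uqcrc2 rose by 0.47 and the small subunit Uqcr11 by 0.98, while Uqcrh and Uqcrq did not pass. Smoothing of length and GC gave 0.42, 0.31 and 0.43 for Uqcrfs1, Uqcrc2 and Uqcr11.

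In complex V, 14 of 18 genes rose. Atp5b was at 12933, 12923, 13434 and 13720 in Vec and at 20223, 18540, 18513 and 16566 in LCAT. It changed by 0.48 (SE 0.08, limma adjusted p = 0.00264), with no overlap. Atp5a1 rose by 0.56, Atp5d by 0.82 and Atp5h by 0.97. The genes Atp5g1, Atp5g2 and Atp5g3 for subunit c rose by 0.82, 0.68 and 0.91, and the small F1 subunit Atp5e by 1.10. With length and GC smoothed the changes of these genes were 1.07, 0.21, 0.39 and 0.51. Those of Atp5b, Atp5a1, Atp5d and Atp5h were 0.24, 0.46, 0.47 and 0.46.

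Complex IV held 13 risen genes of 18 tested and the single decline. Ndufa4, first named as a complex I protein and now placed in complex IV, was at 1848, 1894, 2128 and 1650 in Vec and at 5591, 3736, 4138 and 2842 in LCAT. It rose by 1.08 (SE 0.19, limma adjusted p = 0.00302), and by 0.62 with length and GC smoothed. Its paralog Ndufa4l2, known as a hypoxia-inducible gene, was at 413, 434, 449 and 457 in Vec and at 56.0, 82.5, 71.0 and 55.6 in LCAT. The groups were far apart, and the change was -2.73 log2 units (SE 0.14, limma adjusted p = 7.447e-06), with the same direction in all 23 alternatives and past the threshold in 22.

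Set beside the other libraries, Vec was the group that stood apart for Ndufa4l2. It was at 68.5, 84.8, 86.0 and 103 in Sham and at 62.7, 64.2, 76.5 and 66.9 in OVX, levels like those of LCAT. As a percentage of Ndufa4 it was 21.1% to 27.7% in Vec and at most 4.46% over the 12 other libraries. The surgery and vector libraries were separate experiments, so this is a side by side description without a test. Marker sums also differed between Vec and LCAT: cholangiocyte markers were 67838 to 85175 in Vec and 22552 to 30206 in LCAT, with 3 of 5 higher and 1, Spp1, lower in LCAT. Spp1 again made up nearly all of the sum, at 72505 ± 8154 in Vec and 25711 ± 3047 in LCAT. Kupffer cell markers Clec4f, Vsig4, Cd5l, Marco, Timd4 and Adgre1 were 228 to 403 in Vec and 1056 to 2934 in LCAT, with all 6 higher, and stellate cell markers were 2149 to 2943 and 2158 to 5008, with 4 of 6 higher. Endothelial markers were 1427 to 1781 and 1848 to 3432, with 4 of 6 higher and 1 lower, and erythroid markers 11913 to 13142 and 3705 to 7129, with 1 of 5 higher and 4 lower. Hepatocyte markers summed to 2170000 to 2408240 in Vec and 2033790 to 2808820 in LCAT, and 4 of 6 were higher: Hpd by 4.08, Tat by 0.86, Ttr by 0.63 and Apoh by 0.57 log2 units. The part of these cell types in the changes was not tested.

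**Figure D5:**
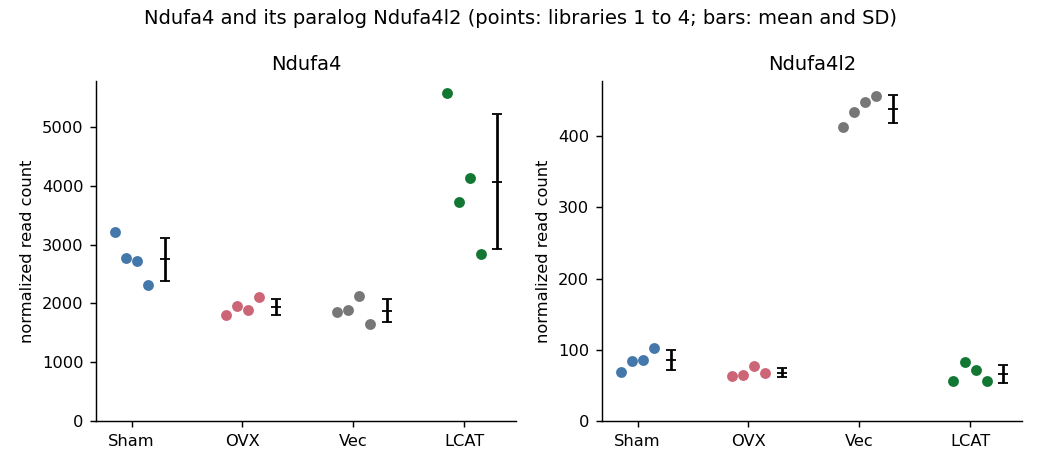
Normalized read counts of Ndufa4 and of its paralog Ndufa4l2 in each library, with the mean and SD of each group (n = 4) beside the points. Ndufa4l2 lies between 413 and 457 in the Vec libraries and between 55.6 and 103 in all others, while Ndufa4 is lowest in OVX and Vec.

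Tissue isoforms separate liver from muscle and heart. The liver forms of complex IV subunits were abundant: Cox6a1 was at 4035 ± 207 in Sham and Cox4i1, Cox6b1, Cox7a2 and Cox8a were at 1549 to 3552 normalized reads over the Sham libraries. The muscle form Cox8b had 0 reads in 15 libraries and 3 reads in LCAT-3. The muscle form Cox6a2 had 3 reads over Sham, 39 over OVX and 0 over Vec and LCAT, and Cox7a1, another muscle form, 105, 83, 139 and 138 reads over Sham, OVX, Vec and LCAT. The lung form Cox4i2 had 23, 18, 67 and 22 reads over the same groups, and the testis form Cox6b2 6, 28, 43 and 22. Among these, Cox7a1 passed the filter in both experiments and Cox4i2 in the vector experiment, and neither passed the limma test.

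The changes in the experiments were tested against each other with an interaction term over the 16 libraries. Of the 100 members tested, 88 differed: 87 were more negative for OVX against Sham than for LCAT against Vec, and 1 was more positive. Over all 13166 genes the shares were 21.9% and 22.9%. mt-Nd6 differed most among mitochondrial genes, by -1.76 log2 units (limma adjusted p = 1.074e-06), and Ndufa4 and Ndufb9 differed by -1.58 and -1.56. Reads of mt-Nd6 and of RNA antisense to it cannot be told apart here either, and they were 55.4% to 175% of those of mt-Nd5 in LCAT. The single positive difference was that of Ndufa4l2, at 2.40. With equal library totals 64 members differed, counted over both directions. The share of all genes was not counted on that scale, so the 64 cannot be set against it. The LCAT libraries with the length pattern are part of this test.

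By gene, on the deposited scale, 50 of the 100 members tested in both experiments were lower in OVX and higher in LCAT. This held for 6.78% of all 12784 genes tested in both. Of the other members 11 were lower in OVX without being higher in LCAT, and 32 were higher in LCAT without being lower in OVX. For 36 members the groups did not overlap in either experiment, with OVX below Sham and LCAT above Vec, which held for 6.46% of all genes. They included Ndufv1, Ndufa10, Ndufa13, Sdhc, Sdhd, Uqcrfs1, Uqcrc2, Cox5a, Cox5b, Atp5a1, Atp5b, mt-Nd4, mt-Cytb, mt-Co2 and mt-Atp6. With equal library totals 10 members were lower in OVX, against 9.16% of all genes. None of the genes just named was among these 10, but mt-Nd6, Ndufa3, Ndufa4 and Ndufb9, which also belong to the 36, were. Of those 10, only mt-Nd6, Ndufa3, Ndufa4 and Ndufb9 were also higher with LCAT on that scale. On the deposited scale, 7 of the 14 members with an NRF1 motif were lower in OVX and 13 higher in LCAT. Of the 59 without it, 32 and 50 were. For the GABPA motif the counts were 8 and 10 of 14 with it, and 31 and 53 of 59 without it. The 3 members with both motifs printed above, Sdhd, Cox6a1 and Atp5h, were picked because they were lower in OVX and higher in LCAT. So was Uqcrfs1, whose window held none, so the changes of these genes say nothing about the motifs.

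Other mitochondrial gene groups were examined beside the members, and their counts are read against the shares of all genes given above (19.0% higher and 20.6% lower in OVX, 20.2% higher and 20.5% lower with LCAT). Of 9 tested regulators of mitochondrial biogenesis, 3 were lower in OVX by limma and 0 higher, a count too small to set apart from the share of all genes. Ppargc1a, a coactivator that drives respiratory gene transcription, fell by 0.78, from 185 ± 25.9 to 107 ± 15.3, and its relative Ppargc1b by 1.74, from 87.2 ± 43.3 to 23.2 ± 8.56. With LCAT, 1 was higher and 3 lower, and the same holds: Tfam, which packages and transcribes mitochondrial DNA, rose by 0.32, while Yy1 fell by 0.52 and Pprc1 by 0.58, and Ppargc1a did not pass at -0.33. Of 17 genes of mitochondrial DNA replication and transcription, 4 were higher and 3 lower in OVX, and 4 were higher with LCAT, all near the shares of 19.0%, 20.6% and 20.2% over all genes. These genes are therefore given as single values. The transcription factor Tfb2m fell by 0.30 in OVX and the polymerase subunit Polg2 by 0.62. Polg2 rose by 0.57 with LCAT, as did the helicase gene Twnk by 0.48, and Tfb1m was higher by 0.85 in both experiments.

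Outside the name rule, 4 further chain subunits and carriers were tested. Cyc1, the cytochrome c1 of complex III, fell by 0.57 in OVX and rose by 0.79 with LCAT, and Cycs, cytochrome c, rose by 0.59 with LCAT. Atpif1, an inhibitor of the ATP synthase, was higher in OVX by 0.73, with 379 ± 54.3 in Sham and 630 ± 121 in OVX. Of 39 assembly factors outside the rule, 1 was higher and 8 lower in OVX, and 14 higher and 1 lower with LCAT. The count lower in OVX matches the 20.6% of all genes, and the count higher with LCAT compares with 20.2%. Higd2a, a complex IV assembly factor, fell by 0.76 in OVX and rose by 0.70 with LCAT, and Surf1, also of complex IV, rose by 0.76 with LCAT while Cox15 fell by 0.37.

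Of 18 genes of coenzyme Q synthesis and electron entry, 1 was higher and 5 lower in OVX, and 10 were higher with LCAT. Over all genes 19.0% were higher and 20.6% lower in OVX, and 20.2% higher with LCAT, so the lower count in OVX, on so few genes, is not set apart. Etfdh, which passes electrons from fatty acid oxidation to coenzyme Q, fell by 1.02 in OVX, from 3891 ± 206 to 1936 ± 310. Coq10a fell by 0.79 in OVX and rose by 0.84 with LCAT. Of 18 genes of the tricarboxylic acid cycle and the steps feeding it, 10 were lower in OVX, and 13 were higher and 1 lower with LCAT, against the same 20.6%, 20.2% and 20.5% of all genes. Fumarase, Fh1, fell by 0.46 and rose by 0.58, and the pyruvate dehydrogenase subunit Pdhb fell by 0.49 and rose by 1.02. Pyruvate carboxylase, Pcx, fell in both, by 0.51 in OVX and 0.44 with LCAT.

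Of 20 mitochondrial carriers and import genes, 1 was higher and 7 lower in OVX, and 6 were higher and 2 lower with LCAT. Beside 20.6% of all genes lower in OVX and 20.2% higher with LCAT, neither count is large enough on so few genes to be read as a result. The phosphate carrier Slc25a3, which supplies the ATP synthase, fell by 0.40 in OVX and rose by 0.41 with LCAT. The uncoupling protein gene Ucp2 went the other way in OVX, from 619 ± 54.7 to 1596 ± 28.6 normalized reads, a rise of 1.37. With LCAT the porin Vdac2 fell by 0.40 and the import receptor Tomm70a by 0.27. Tomm70a had a change of 0.14 with length and GC smoothed.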

How the data were processed

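Polyadenylated RNA of mouse liver was sequenced after TRIzol extraction and BGI library preparation, per the labels' protocols. FastQC, HISAT2, SAMtools, StringTie and the build mm10 are named in the submitters' processing notes; versions, annotation, strand handling and the treatment of reads shared with paralogs, pseudogenes or nuclear copies of mitochondrial genes are not stated there, so such genes are uncertain. The deposited values are a signal per gene and library: read counts scaled by the authors with a size factor for each library, equal to the median-of-ratios factor. Multiplied back, 100% of values in the 16 libraries were whole reads within 0.01 read, and library totals were 12562943 to 27110501 reads. The count test on these reads (edgeR) called 60 members lower in OVX, and 86 higher and 1 lower with LCAT. Over all genes it called 2639 of 13059 lower in OVX, and 2898 higher and 2484 lower of 13095 with LCAT.

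Each comparison used its own 8 libraries. R 4.3.3 and limma 3.58.1 (trended, robust prior) tested log2(value + 1) of genes averaging 10 or more, and adjusted p are Benjamini-Hochberg values over all genes tested, with a threshold of 0.05. Fold changes on this scale understate those of low genes. The interaction was fitted over the 16 libraries. Alternatives were a minimum mean of 50 or none, pseudocounts of 5 and 0.5, TMM, equal totals with and without mitochondrial genes, all 16 libraries, a replicate block, no trend, edgeR 4.0.16, DESeq2 1.42.0, libraries 1 and 4 only and leaving out each library. Chosen after the data were seen were smoothing of length and GC content, and LCAT-4 alone. The fits were tested on simulated data. Transcript lengths and coordinates are from GENCODE M21 on GRCm38, which matched 16479 of 16793 genes; Atp5o and Atp5sl had no match. Mitochondrial rRNA and tRNA genes were not analysed here. The values of 1 member are not reported here.

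Members, lists and alternatives were chosen with earlier results of these data known. Named are all mitochondrial genes, up to 3 members per complex, comparison and direction with the smallest p, tissue isoform sets, members without overlap in both experiments, and up to 2 genes per list and direction. Others named, such as Ndufs1, Ndufs8, Ndufv2, Ndufv3, Ndufa2, Atp5e, Uqcrh and Uqcrc1, and the genes of alternative counts, were chosen after their values were seen.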

Additional observations from a re-analysis of the deposited data

Results flagged for a closer look

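Chance flags about 1 in 20 groups, and the count here was near that rate. In 12 of 239 groups of 4 libraries, over 62 genes, 1 library stood apart from the other 3, at times by little. Among mitochondrial genes these were mt-Nd2 in Vec-1, at 75929 normalized reads with 64811 to 65086 in the others, and mt-Atp8 in Sham-1, at 20032 with 16037 to 16658. Among subunits of complexes II, IV and V, Sdha was low in Sham-4 at 5460, with 5766 to 5780 in the other Sham libraries. Atp5a1 was high in Vec-2 at 9763, with 8652 to 8795 in the others, and Cox4i1 high in LCAT-1 at 7657, with 3290 to 3770 in the others. The low muscle form Cox7a1 was at 33.7 in Sham-1 and 20.4 to 21.8 in the others.

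Among complex I subunits, Ndufa10 was at 1804 in Vec-1 with 1655 to 1678 in the others, Ndufa6 at 1820 in Vec-3 with 1601 to 1631, and Ndufa3 at 749 in Vec-3 with 647 to 655. The assembly factor Ndufaf1 was low in Sham-3 at 207, with 247 to 255 in the others. Ndufaf4 was at 476 in Sham-4, with 133 to 145 in the others, and at 450 in OVX-2, with 114 to 144 in the others.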

How the results depend on the processing

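For OVX against Sham, the count of lower members was 10 with equal totals and 12 with equal totals of non-mitochondrial genes. It was 32 with all 16 libraries in one fit, 39 with the replicate block and 0 with libraries 1 and 4 only. Without single libraries it was 34 to 68. Over all genes, lower counts were 1210 and 1262 of 13206 with these equal totals, 2316 of 13166 with all 16 libraries and 2287 of 13059 with the block. They were 0 of 13056 with libraries 1 and 4 only, so that 0 is not particular to the members, and 1863 to 3308 without single libraries. The count of higher members was 4 and 3 with both equal totals, where 4468 and 4248 of 13206 genes were higher. The nuclear and mitochondrial medians were -0.067 and -0.33 with equal totals, and -0.084 and -0.35 with those of non-mitochondrial genes. Cox7a2 and Ndufa8 were at 0.20 and 0.015 with equal totals. For LCAT against Vec, higher and lower members numbered 0 and 0 with libraries 1 and 4 only (2 against 2 libraries), and 58 to 89 and 1 to 2 without single libraries. Over all genes these counts were 1 and 2 of 13101 with libraries 1 and 4 only, and 1928 to 3346 and 1954 to 3482 without single libraries. The mitochondrial median was 0.25 with both equal totals. With length and GC smoothed 2 members were lower, Ndufa4l2 and Cox4i2, the nuclear median was 0.37, the mitochondrial median and mt-Atp6 were both at -0.0076, and Tomm70a was at 0.14. With LCAT-4 alone 48 members were higher and 2 lower, the medians were 0.32 and 0.55, and mt-Nd5 and mt-Nd4l were at 0.80 and 0.62. With the replicate block 75 members were higher and 1 lower, where 2231 and 2327 of 13095 genes were. The cause of these shifts was not tested.

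Of the called members, 59 of 61 in OVX and 79 of 83 with LCAT kept their sign under every alternative run. Same-numbered libraries did not deviate together across genes (correlations -0.03, 0.04, -0.06 and -0.01 for Sham with OVX, and -0.03, -0.03, -0.01 and 0.12 for Vec with LCAT). No pairing by number was thus seen, but with 4 libraries per group these values cannot exclude one, and the labels state none. Without single libraries 85 to 92 members differed between the experiments, and the shares of all genes were not counted in those fits. Depth limits the tissue isoforms, which had at most 139 reads over a group, Ndufa4l2 aside.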

Other observations

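Ndufaf4, an assembly factor of complex I, had levels that did not follow the groups. It was at 450 to 712 normalized reads in 6 libraries, Sham-4, OVX-2, Vec-2, Vec-4, LCAT-1 and LCAT-4, and at 114 to 217 in the other 10.

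The reads of mt-Nd5 relative to mt-Nd4 differed among the groups of both experiments. They were 66.2% to 84.7% in Sham, 52.5% to 64.9% in OVX and 41.6% to 46.5% in Vec, ranges that do not overlap, and 15.8%, 28.7%, 28.4% and 49.7% in LCAT 1 to 4.

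As a share of all reads of a library, the 13 mitochondrial genes took 4.82% to 5.28% in Sham, 3.40% to 4.70% in OVX, 3.61% to 3.96% in Vec and 3.35% to 4.85% in LCAT. The 91 nuclear members took 0.717% to 0.755% in Sham, 0.609% to 0.803% in OVX, 0.699% to 0.767% in Vec and 0.850% to 1.34% in LCAT.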
